A study of Mus musculus with 6 samples.

Results

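The Fanconi anaemia (FA) and homologous recombination genes are a hand-made list of 39 genes of crosslink repair, recombination and the linked checkpoint, taken from the 35968 mouse genes that had a transcript in the deposited tables. The list was drawn up because Fancb had fallen in co-culture, so Fancb is given below as a description, and the counts over the list describe its members and are not independent evidence of their direction. All 39 members had enough counts to be tested, among 13221 genes that did. RNA-seq was done on the mouse stromal line MS-5 grown alone (MS-5 only, libraries MO1, MO2 and MO3) and on MS-5 cells kept for 24 hr with the human acute myeloid leukaemia (AML) line SKM-1 (co-culture, libraries MC1, MC2 and MC3). In co-culture SKM-1 cells outnumbered stromal cells by 4 to 1, at a density of 750000 SKM-1 cells per ml, and the cells were separated before RNA extraction. MS-5 and SKM-1 are each 1 established line, and neither the labels nor the methods say whether the 3 libraries of a group came from separate cultures, so p-values measure only the spread between these libraries.

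Interstrand crosslinks covalently join the strands of DNA and block replication forks. The FA core complex is recruited to the lesion by FANCM and FAAP24, and its ubiquitin ligase FANCL marks the FANCD2-FANCI pair, which opens the way for nucleases that unhook the crosslink. The resulting break is resected by the MRE11-RAD50-NBN complex, CtIP (Rbbp8) and EXO1. BRCA1, BARD1, PALB2 and BRCA2 then prepare the resected end for strand exchange, and BLM with RMI1 and RMI2 dissolves the joint molecules. ATM and ATR signal the damage through CHEK2 and CHEK1. Many of these genes are transcribed most in cells that pass through S phase.

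Library totals ranged from 23978881 to 27182453 estimated counts in MS-5 only and from 26258451 to 35694987 in co-culture, and a member held between 74 and 2652 counts in a library. MO2 and MC3 stood apart from the other 4 libraries. Their transcripts with a count numbered 65170 and 66456 (51533 to 57350 in the others), their mitochondrial share was 6.03% and 5.89% (10.5% to 13.1% in the others), and transcripts annotated as retained introns took 3.39% and 3.42% of their counts (1.49% to 1.64% in the others). Neither the labels nor the methods name a batch. Of the 15 stromal markers, 13 passed the filter on low counts, and the level of all 15 together lay between 13598 and 15144 CPM in MS-5 only and between 15327 and 17820 CPM in co-culture. Dcn and Lum were at or near 0 in every library and Thy1 stayed at or under 4.25 CPM. The 14 leukocyte markers summed to between 52.2 and 63.5 CPM in MS-5 only and to 102, 361 and 97.0 CPM in co-culture. Ptprc, Coro1a, Laptm5, Spi1, Irf8 and Csf1r were at or under 0.541 CPM in each MS-5 only library and between 1.07 and 75.4 CPM in co-culture, so they passed the filter on low counts only through co-culture and a count of calls among them supports nothing. Irf8 and Kit had no count in MS-5 only. Of the 10 leukocyte markers tested, 8 had a positive log2 fold change of co-culture over MS-5 only and 2 a negative one (52.5% of all genes). The 2 were Lyz2 (-0.37) and Cd53 (-0.11), both with overlapping groups. Lyz2 was at 16.8, 21.7 and 30.4 CPM in MS-5 only and at 18.5, 19.9 and 14.8 CPM in co-culture. Cd33 and Cd34 stayed at or under 0.446 CPM in every library. The part of these differences in the results below was not tested, and in bulk RNA fewer cells of a type and less RNA per cell cannot be told apart. A read of the human SKM-1 cells was counted only if it looked like a mouse transcript. The part of such reads in the levels of markers and members was not tested.

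Most members had lower levels in co-culture. CPM below is the count scaled to library size after TMM normalization, fold changes compare co-culture with MS-5 only, and an adjusted p-value under 0.1 is past the threshold. In edgeR's quasi-likelihood test, adjusted by Benjamini-Hochberg over all genes, 3 of the 39 members were past the threshold as lower, as were 0.666% of the genes tested. They were Xrcc2, Exo1 and Fancb, and since the value of Fancb chose the list, 2 are left apart from it. As higher 0 members passed, against 3.71% of the genes tested. At an unadjusted p under 0.05 there were 16 lower and 0 higher members, against 5.63% and 8.62% of all genes. The log2 fold change was negative in 37 members, with a median of -0.41, and it was negative in 52.5% of all genes, with a median of -0.02. All 3 co-culture libraries lay below all 3 MS-5 only libraries in 19 members (9.6% of all genes) and above them in 0 (11.6% of all genes), and the groups overlapped in the other 20. Summed over the 39 members, the level was 863, 1046 and 863 CPM in MO1, MO2 and MO3 and 655, 674 and 763 CPM in MC1, MC2 and MC3, so that the lowest MS-5 only sum was above the highest co-culture sum.

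These counts depended on MO2 and MC3. With a covariate for MO2 and MC3 in the same test, 25 members passed as lower and 1, Rad52, as higher, against 16.4% and 13.9% of all genes. The covariate was taken from the study's plot of principal components of these same libraries, not from a label. The adjusted p-values of that fit are therefore given as a description. Without MO2 and MC3, 14 members passed as lower and 0 as higher, against 4.6% and 7.92% of all genes, and all 14 were among the 25. The direction was also read in each subset alone, by 2 unlike measures. For MC3 against MO2 it was the ratio of CPM, with 0.1 added to each. For MC1 and MC2 against MO1 and MO3 it was the log2 fold change of the edgeR fit without MO2 and MC3. In both subsets 35 members were lower (41% of all genes), and Fance and Rad52 were higher (36.7% of all genes). Rad50 and Rad51c changed direction between the subsets. Scaled by library size alone, edgeR gave 2 lower members, Xrcc2 and Chek1, and 0 higher, against 0.771% and 3.28% of all genes. DESeq2's test gave 9 lower and 0 higher members, against 2.71% and 6.88% of all genes. With protein-coding transcripts only, edgeR gave 0 members in either direction, and 0% of all genes passed as lower and 0.025% as higher. Leaving out MO1, MO2 or MO3 left 0 members past the threshold and 0% of all genes in either direction. Without MC1 there were 0 members (0% of all genes lower and 2.17% higher), without MC2 0 (0.0832% and 3.22%), and without MC3 there were 2 lower, Fancb and Xrcc2 (0.166% and 3.68%).

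**Figure D1:**
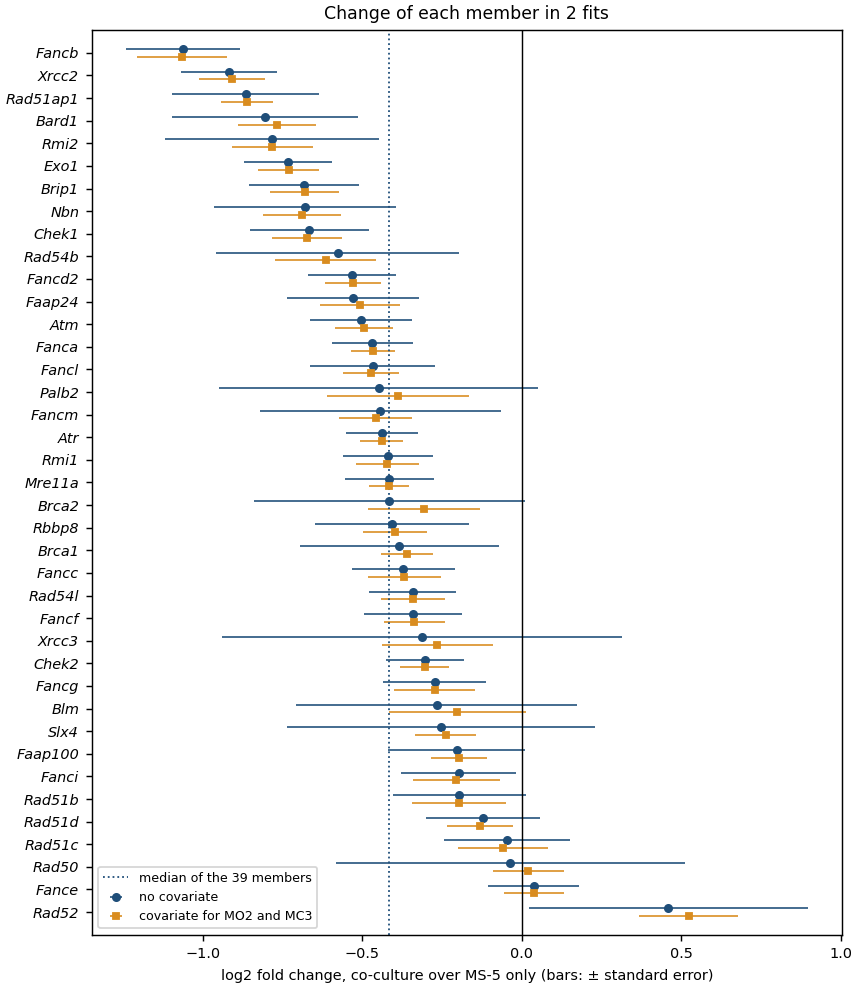
Log2 fold change of each of the 39 members in co-culture over MS-5 only (x axis), with standard errors as bars, from the test without a covariate (circles) and from that with the covariate (squares); the dotted line is the median of the 39, -0.41. The squares lie close to the circles and their bars are shorter, and 37 circles lie left of 0, with Fance and Rad52 to its right.

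Fancb (ENSMUSG00000047757.16, chrX:164980592-164997272 of GRCm38, plus strand) encodes FANCB, a scaffold subunit of the core complex beside FANCL. It was counted 237, 289 and 224 times in MO1, MO2 and MO3 and 138, 106 and 178 times in MC1, MC2 and MC3. Its level was 9.46, 9.20 and 10.2 CPM in MS-5 only and 4.21, 4.40 and 5.18 CPM in co-culture. Every co-culture library lay below every MS-5 only library, MO2 and MC3 included. The means were 9.60 ± 0.493 and 4.60 ± 0.514 CPM (SD, n = 3), and the log2 fold change was -1.06 (SE 0.18), a value that chose the list and is given as a description. A single protein-coding transcript, Fancb-203, held 98.4% of its counts.

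Xrcc2 (ENSMUSG00000028933.11, chr5:25689812-25705825, minus strand), a gene of strand exchange, was at 25.7, 21.0 and 27.2 CPM in MS-5 only and at 13.1, 12.9 and 13.1 CPM in co-culture. The co-culture libraries were nearly equal, and all lay well below MO2, the lowest of MS-5 only. It fell by 0.92 on the log2 scale (SE 0.15, adjusted p = 0.0734, edgeR's quasi-likelihood test), and Xrcc2-201 held 98.3% of its counts. Exo1 (ENSMUSG00000039748.11, chr1:175880581-175913489, plus strand), the exonuclease of long-range resection, was at 18.2, 15.8 and 17.1 CPM in MS-5 only and at 10.1, 10.3 and 10.3 CPM in co-culture, again without overlap. It fell by 0.73 (SE 0.14, adjusted p = 0.0742, edgeR's quasi-likelihood test). Exo1-201, its longest transcript, with 67.5% of the counts, was at 12.9, 11.1 and 13.3 CPM in MS-5 only and at 5.94, 6.22 and 6.39 CPM in co-culture, whereas in each of the other Exo1 transcripts the groups overlapped. With an offset for effective length, the log2 fold change of Exo1 was -0.30 (adjusted p = 0.626, edgeR), and when scaled by library size alone it was -0.72 (adjusted p = 0.117, edgeR), so the call of Exo1 was lost under either setting.

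**Figure D2:**
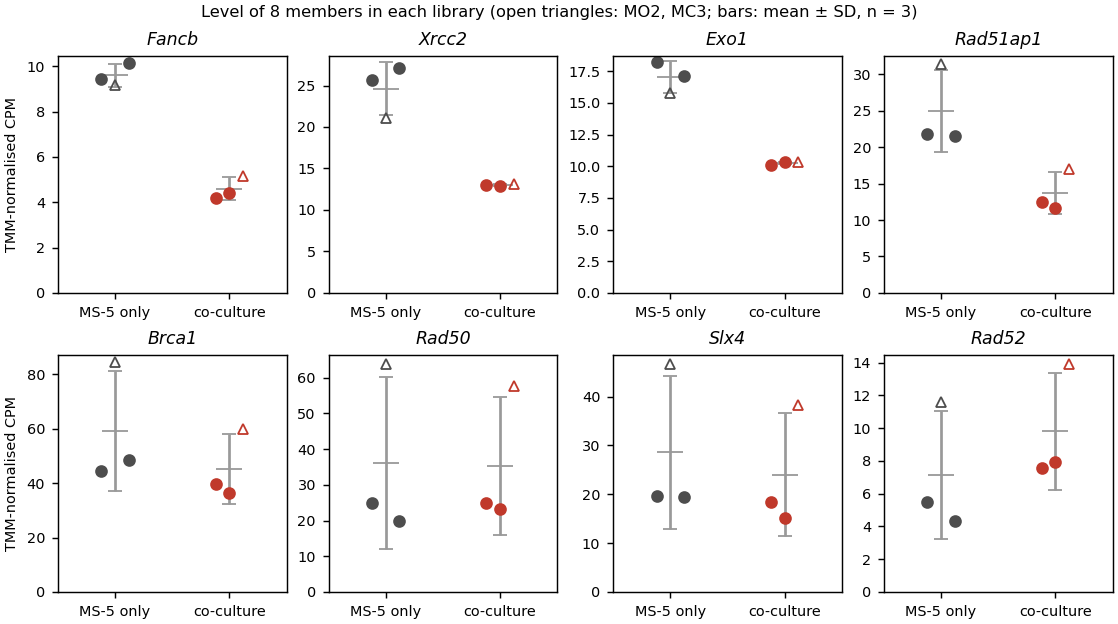
TMM-normalized CPM (y axis, from 0) of 8 members in each library of MS-5 only (dark) and co-culture (red); open triangles are MO2 and MC3, and the bars are mean ± SD (n = 3). In Fancb, Xrcc2 and Exo1 the co-culture points lie together below all MS-5 only points, whereas in Brca1, Rad50, Slx4 and Rad52 the triangles lie above the circles of their own group by more than the groups differ.

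Promoter windows from RefSeq (GRCm38.p6), from 250 bases before to 50 bases after a transcription start, were at hand for 30 of the 39 members. Rad51d, Rad54b, Fancd2, Xrcc2, Rbbp8, Exo1, Rmi2, Rad50 and Nbn had no window in the table. The windows of Fancb, of Brip1, Atr and Rad51ap1, which had the lowest p-values among the other members with a window, and of Rad52, the member that was highest relative to MS-5 only, are printed 5′ to 3′ with capitals for a CCAAT box (CCAAT on either strand).
Fancb, chrX:164980342-164980641, plus strand: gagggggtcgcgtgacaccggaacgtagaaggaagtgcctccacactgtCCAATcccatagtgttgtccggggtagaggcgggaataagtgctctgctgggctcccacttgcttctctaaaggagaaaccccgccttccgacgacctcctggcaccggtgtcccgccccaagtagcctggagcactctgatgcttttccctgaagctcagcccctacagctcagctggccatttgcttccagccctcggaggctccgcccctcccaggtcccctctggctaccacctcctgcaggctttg
Brip1, chr11:86201144-86201443, minus strand: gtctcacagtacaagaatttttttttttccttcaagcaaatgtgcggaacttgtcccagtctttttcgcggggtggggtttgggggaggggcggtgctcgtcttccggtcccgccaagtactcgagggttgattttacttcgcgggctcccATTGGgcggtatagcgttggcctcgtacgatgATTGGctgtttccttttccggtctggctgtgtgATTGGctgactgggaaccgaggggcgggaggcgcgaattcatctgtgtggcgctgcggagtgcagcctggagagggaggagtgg
Atr, chr9:95857347-95857646, plus strand: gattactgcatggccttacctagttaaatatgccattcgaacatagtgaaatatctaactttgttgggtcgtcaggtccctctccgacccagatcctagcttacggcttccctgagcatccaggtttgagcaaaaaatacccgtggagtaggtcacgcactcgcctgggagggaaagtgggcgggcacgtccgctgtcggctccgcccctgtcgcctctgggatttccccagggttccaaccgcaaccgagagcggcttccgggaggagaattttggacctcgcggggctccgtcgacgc
Rad51ap1, chr6:126939538-126939837, minus strand: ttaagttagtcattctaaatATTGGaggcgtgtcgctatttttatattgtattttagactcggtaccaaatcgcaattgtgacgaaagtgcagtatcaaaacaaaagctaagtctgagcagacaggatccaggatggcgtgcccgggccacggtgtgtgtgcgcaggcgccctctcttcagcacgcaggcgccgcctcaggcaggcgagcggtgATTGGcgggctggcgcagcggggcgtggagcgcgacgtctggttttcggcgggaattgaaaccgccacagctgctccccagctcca
Rad52, chr6:119902448-119902747, plus strand: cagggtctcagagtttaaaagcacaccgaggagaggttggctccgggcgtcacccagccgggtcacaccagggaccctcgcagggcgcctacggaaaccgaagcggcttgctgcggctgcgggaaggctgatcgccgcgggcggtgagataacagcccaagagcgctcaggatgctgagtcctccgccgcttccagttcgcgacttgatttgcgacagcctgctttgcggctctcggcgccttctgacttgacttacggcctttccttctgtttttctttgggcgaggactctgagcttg
The CCAAT letters, which NF-Y binds in promoters of many cell cycle genes, stood in 20 of the 30 members with a window (66.7%) and in 41.1% of the 27025 genes in the table. In the windows shown, there were 3 in Brip1, 2 in Rad51ap1, 1 in Fancb and 0 in Atr and Rad52. The E2F letters TTTCGCGC or TTTGGCGC were found in 2 of the 30 (Rad51c and Rmi1), or 6.67%, against 0.929% of all genes, and the CHR letters TTTGAA in 3 (Bard1, Faap24 and Rad51b), or 10%, against 20.2%. Both strands were searched, and none of these strings contains another. The windows of members were richer in G and C than those of all genes, with medians of 58.8% and 52.7%, so the shares are a description of these letters and not of sites in use.

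In the FA core complex, 9 of 10 members had a negative log2 fold change (median -0.41), and 6 lay below MS-5 only in every co-culture library (Fanca, Faap24, Fancc, Fancf and Fancl, and Fancb, which chose the list), where 9.6% of all genes did. Fanca, the partner of FANCG in the complex, was at 33.7, 39.2 and 34.5 CPM in MS-5 only and at 25.3, 25.2 and 27.2 CPM in co-culture (log2 fold change -0.47, SE 0.13, adjusted p = 0.137, edgeR's quasi-likelihood test). Faap24, which binds DNA with FANCM, was at 15.6, 9.96 and 14.3 CPM and at 9.58, 9.51 and 8.47 CPM, and MO2 lay only just above the co-culture libraries. Its log2 fold change was -0.53 (SE 0.21, adjusted p = 0.313, edgeR). Both passed with the covariate (adjusted p = 0.0147 for Fanca and 0.0378 for Faap24). Fancl, the ubiquitin ligase, was at 21.9, 16.4 and 20.2 CPM in MS-5 only and at 15.9, 15.2 and 11.3 CPM in co-culture, with MC3 the lowest. Fance, which bridges the core complex to FANCD2, was the member of the complex with a positive log2 fold change, at 20.6, 17.03 and 17.7 CPM against 20.02, 19.03 and 17.7 CPM (log2 fold change 0.04, SE 0.14, adjusted p = 0.973, edgeR). The log2 fold changes of the core members other than Fancb lay between -0.53 and 0.04.

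The pair that the core complex marks differed in overlap. Fancd2 was at 35.9, 43.1 and 37.4 CPM in MS-5 only and at 24.4, 28.3 and 27.9 CPM in co-culture, so that the groups were apart (log2 fold change -0.53, SE 0.14, adjusted p = 0.124, edgeR's quasi-likelihood test, and 0.0165 with the covariate). Fanci was at 39.7, 40.4 and 48.4 CPM and at 34.4, 45.7 and 32.0 CPM, where MC2 lay above MO1 and MO2. MC2, the co-culture library with the highest sum of leukocyte markers, was the highest co-culture library in 7 of the 39 members, both of this pair included. In most members MC1 or MC3 was the highest. The same count was not made over all genes, and a link to the leukocyte markers was not tested.

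All 5 members of the BRCA group had a negative log2 fold change (median -0.45), but without MO2 the values of Palb2 and Brca2 were 0.13 and 0.19, and without MO2 and MC3 that of Brca2 was -0.04. Brip1, a helicase that binds BRCA1 and is mutated in FA, was at 26.0, 34.9 and 31.3 CPM in MS-5 only and at 16.6, 19.4 and 21.5 CPM in co-culture (log2 fold change -0.68, SE 0.17, adjusted p = 0.118, edgeR). Bard1, the obligate partner of BRCA1, was at 12.1, 22.8 and 13.4 CPM and at 7.90, 8.52 and 11.3 CPM, and MO2 was the highest by far (log2 fold change -0.80, SE 0.29, adjusted p = 0.269, edgeR, and -0.47 without MO2). With the covariate both passed (adjusted p = 0.0156 for Brip1 and 0.0158 for Bard1). Brca1 was at 44.4, 84.4 and 48.6 CPM in MS-5 only and at 39.5, 36.4 and 60.1 CPM in co-culture. Brca2, which PALB2 brings to the break, was at 24.7, 56.8 and 19.9 CPM and at 19.96, 23.0 and 33.2 CPM. In both genes MC3 lay above MO1 and MO3, and MO2 above all. All 5 members of the group, Palb2 included, were higher in MO2 and in MC3 than in the other libraries of the same condition.

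Among the genes of strand exchange and its partners, Rad51ap1, which stimulates strand exchange and is the member with the second highest mean TPM, was at 21.8, 31.5 and 21.5 CPM in MS-5 only and at 12.5, 11.6 and 16.9 CPM in co-culture. The groups were apart although MO2 and MC3 were each the highest of their group (log2 fold change -0.87, SE 0.23, adjusted p = 0.130, edgeR's quasi-likelihood test). With the covariate Rad51ap1 passed (adjusted p = 0.0104). Rad54l, a motor protein of strand exchange, was at 21.3, 24.0 and 22.4 CPM and at 16.4, 19.4 and 17.6 CPM (log2 fold change -0.34, SE 0.14, adjusted p = 0.327, edgeR). Rad51d, Rad51b and Rad51c lay closer to 0, with log2 fold changes of -0.12, -0.20 and -0.05, and Rad51d was at 18.4, 15.5 and 17.1 CPM against 18.1, 16.1 and 12.7 CPM. Rad51c had overlapping groups, and its sign changed between settings. The log2 fold change of Rad51b lay between -0.28 and -0.022 with 1 library left out. Rad54b and Xrcc3 had log2 fold changes of -0.58 and -0.31, with overlapping groups. Of the 9 genes of this group 8 were negative (52.5% of all genes), with a median of -0.31.

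Rad52 (ENSMUSG00000030166.14, chr6:119902698-119922828, plus strand), a single-strand annealing factor, had the largest positive log2 fold change of the list. It was at 5.47, 11.6 and 4.31 CPM in MS-5 only and at 7.57, 7.93 and 13.9 CPM in co-culture. MO2 and MC3 were each the highest of their group, and the groups overlapped through MO2 alone. The log2 fold change was 0.46 (SE 0.44, adjusted p = 0.759, edgeR's quasi-likelihood test), and with the covariate 0.52 (SE 0.15, adjusted p = 0.0606). Without MO2 it was 1.004, without MC3 0.12, without MO3 0.20 and without MO1 0.30, in the test without a covariate. Its counts were spread over 14 transcripts, several of them annotated as retained introns. The protein-coding Rad52-212, with 36.8% of the counts, was at 1.23, 2.77 and 1.76 CPM in MS-5 only and at 3.88, 4.78 and 4.62 CPM in co-culture, above in every library. With protein-coding transcripts only and the covariate, the gene's log2 fold change was 0.91. In Rad51c, by comparison, 57.2% of the counts were assigned to Rad51c-204, annotated for nonsense-mediated decay, which was at 8.30, 7.17 and 8.99 CPM in MS-5 only and at 6.80, 6.24 and 5.41 CPM in co-culture, below in every library, and with protein-coding transcripts only Rad51c had a log2 fold change of 0.34.

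In the group of junction dissolution and the nuclease scaffold, all 4 members had negative log2 fold changes, from -0.78 for Rmi2 to -0.25 for Slx4, but without MO2 those of Blm and Slx4 were 0.26 and 0.30. Rmi1, which holds the BLM complex together, was at 20.8, 22.2 and 23.0 CPM in MS-5 only and at 14.8, 16.6 and 18.0 CPM in co-culture (log2 fold change -0.42, SE 0.14, adjusted p = 0.229, edgeR, and 0.0329 with the covariate). Slx4, the scaffold that gathers the nucleases of crosslink unhooking, was at 19.6, 46.7 and 19.5 CPM and at 18.5, 15.2 and 38.4 CPM. MO2 and MC3 lay far above the other libraries of their groups, and the other libraries differed less.

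Of the 5 genes of end sensing and resection, 4 passed as lower with the covariate, as did 16.4% of all genes, and Rad50 was the exception. Mre11a, the nuclease subunit and the member with the highest mean TPM, was at 90.1, 75.8 and 86.2 CPM in MS-5 only and at 68.9, 64.3 and 55.8 CPM in co-culture, with no overlap (log2 fold change -0.41, SE 0.14, adjusted p = 0.231, edgeR's quasi-likelihood test). Its partner Rad50 was at 24.8, 63.8 and 19.9 CPM and at 25.0, 23.2 and 57.6 CPM, and MO2 and MC3 lay far above the rest of their groups. Rad50 had a log2 fold change of -0.04 (SE 0.55, adjusted p = 0.993, edgeR), and of 0.13 without MO2 and MC3. Nbn, the subunit that recruits ATM, and Rbbp8 had log2 fold changes of -0.68 and -0.41, and that of Rbbp8 was -0.18 without MO2.

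The 4 checkpoint kinases all lay below MS-5 only in every co-culture library (9.6% of all genes), and all 4 passed as lower with the covariate (16.4% of all genes), with adjusted p-values between 0.0156 and 0.0398. Chek1, the effector of ATR, was at 37.2, 29.2 and 33.1 CPM in MS-5 only and at 20.2, 25.2 and 17.3 CPM in co-culture (log2 fold change -0.67, SE 0.19, adjusted p = 0.148, edgeR's quasi-likelihood test). Atr was at 58.6, 56.7 and 53.3 CPM and at 40.8, 41.5 and 42.1 CPM, with little spread within either group (log2 fold change -0.44, SE 0.11, adjusted p = 0.121, edgeR). Atm was at 23.3, 30.9 and 24.6 CPM and at 17.2, 18.7 and 19.7 CPM (log2 fold change -0.50, SE 0.16, adjusted p = 0.202, edgeR). Chek2, the effector of ATM, differed least of the 4, at 30.8, 30.9 and 32.9 CPM against 25.6, 27.2 and 23.9 CPM (log2 fold change -0.30, SE 0.12, adjusted p = 0.331, edgeR).

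**Figure D3:**
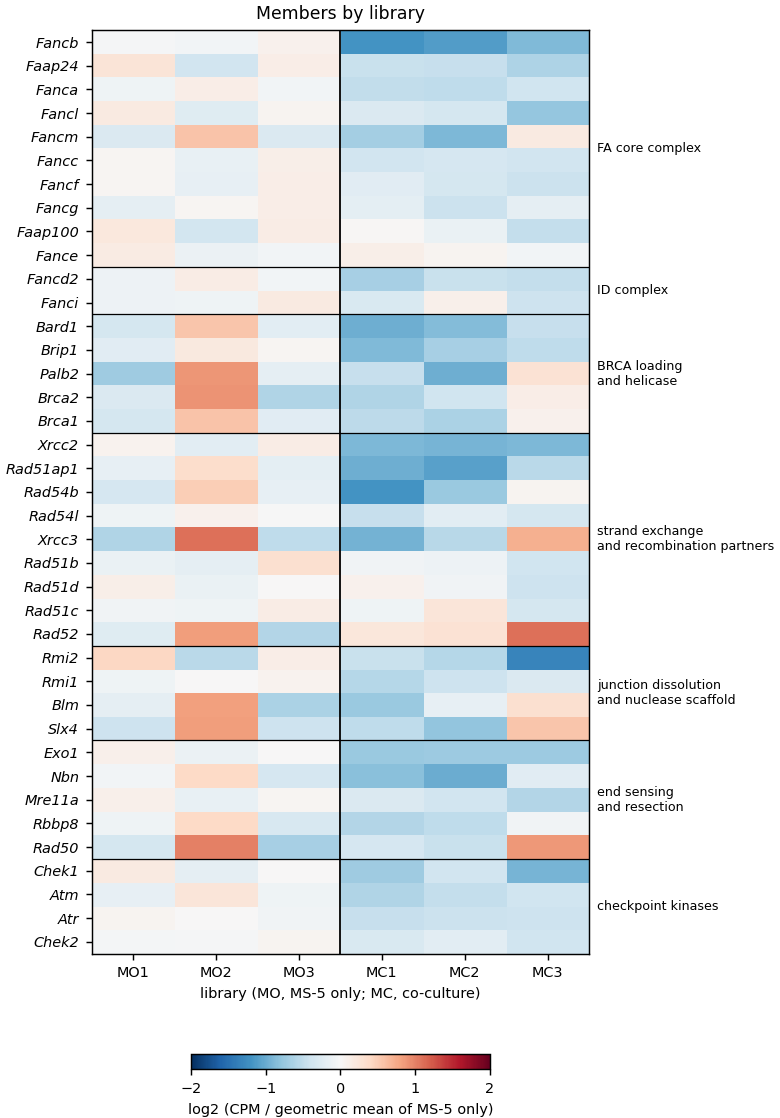
Log2 ratio of the CPM of each of the 39 members in each of the 6 libraries to the geometric mean of MS-5 only (colour, blue lower and red higher), with members grouped by role and ordered within a role by fold change. The upper rows of most groups are blue in MC1, MC2 and MC3 alike, and the rows of Brca2, Palb2, Xrcc3, Slx4 and Rad50 are red in MO2.

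MO2 and MC3 differed from the other libraries in the members as well. In both conditions 17 members were higher in MO2 and MC3 than in each other library of the group and 12 were lower, against 33% and 36.9% of all genes. The ratio of MO2 and MC3 to the others was 2.94 for Xrcc3, 2.61 for Rad50, 2.33 for Slx4, 2.21 for Palb2, 2.06 for Rad52 and 2.01 for Brca2, and 0.565 for Rmi2. It was 1.06 for Fancb, 0.897 for Xrcc2, 0.949 for Exo1 and 1.02 for Atr. Among the core complex, 6 of 10 members were lower in MO2 and MC3. Retained introns took 4.05% and 4.16% of the members' counts in MO2 and MC3 and between 1.61% and 2.25% in the other libraries.

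Levels between genes were compared by TPM, which corrects for transcript length. On that scale the mean over all libraries was highest for Mre11a (32.2 TPM), Rad51ap1 (22.0), Chek2 (21.8) and Chek1 (21.1), and lowest for Bard1 (3.06), Fancm (3.16), Fancb (3.22) and Rmi2 (3.29). Neighbours in this order were closer than their spread. Rad51ap1 had 28.1 ± 16.3 TPM (SD, n = 3) in MS-5 only and Chek2 had 24.3 ± 7.46 TPM. The members summed to 359, 670 and 343 TPM in MO1, MO2 and MO3 and to 283, 278 and 498 TPM in MC1, MC2 and MC3, so MO2 and MC3 were also the highest of their groups on this scale, and the sums of the groups overlapped, unlike in CPM. In limma's test on log2(TPM + 0.5), 0 members passed, where 0.129% of all genes passed as lower and 2.56% as higher.

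**Figure D4:**
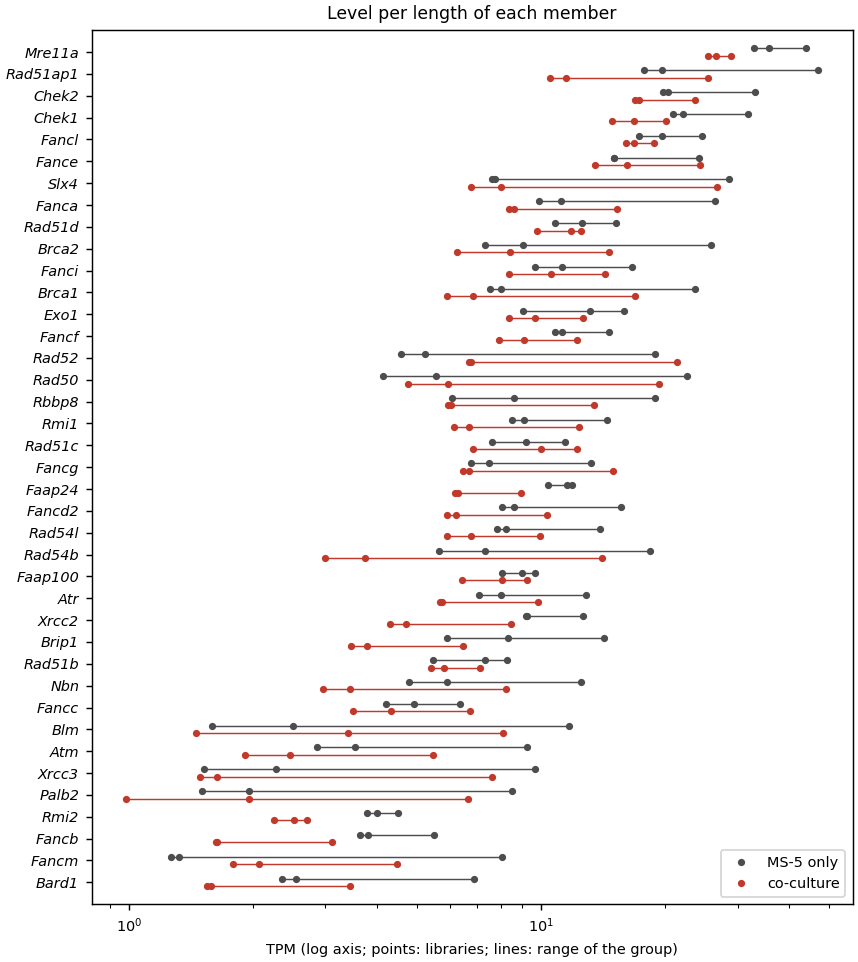
TPM of the 39 members (log axis), 1 point for each library and a line over the range of each group, MS-5 only dark and co-culture red, ordered by the mean over all libraries from Mre11a (32.2 TPM) down to Bard1 (3.06 TPM). The ranges of neighbouring genes overlap, and in most genes the red line lies left of or across the dark line.

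Among genes of the same pathways that are not members, 42 further crosslink repair, recombination and checkpoint genes had a median log2 fold change of -0.32, and 36 were negative. Over all genes the median was -0.02, and 52.5% were negative. Of the 42 genes 1 passed as lower and 0 as higher, against 0.666% and 3.71% of all genes. It was Usp1, the deubiquitinase that removes the mark from FANCD2, at 79.3, 63.6 and 64.6 CPM in MS-5 only and at 41.4, 47.1 and 43.9 CPM in co-culture (log2 fold change -0.65, SE 0.14, adjusted p = 0.0870, edgeR's quasi-likelihood test). With the covariate 20 of these 42 genes passed as lower and 1 as higher, against 16.4% and 13.9% of all genes. In the 16 genes of end joining and 53BP1, the other route of break repair, 0 passed in either direction, and the median was -0.12. Over all genes 0.666% passed as lower and 3.71% as higher. With the covariate 4 of the 16 passed as lower and 1 as higher, where 16.4% and 13.9% of all genes did.

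Cell cycle genes were lower beside the members. All 33 genes of the cell cycle and replication list had negative log2 fold changes, with a median of -0.57. Over all genes 52.5% were negative and the median was -0.02. In the list 4 passed as lower (Ccnb1, Rrm2, Cdc45 and Cdc6) and 0 as higher, against 0.666% and 3.71% of all genes. The log2 fold changes of the 4 lay between -0.93 for Rrm2 and -0.57 for Cdc45. The list summed to 6074, 5212 and 5596 CPM in MS-5 only and to 3717, 3983 and 3520 CPM in co-culture, and with the covariate 30 of the 33 passed as lower (16.4% of all genes). Whether the lower levels of the members move with the share of cycling cells was not tested. Mki67, a proliferation marker, was at 40.7 and 38.8 CPM in MO1 and MO3 and at 48.0 and 46.7 CPM in MC1 and MC2, but at 561 CPM in MO2 and 452 CPM in MC3. It had a log2 fold change of -0.23 (SE 1.33, adjusted p = 0.983, edgeR). Most of the list did not share the high level of Mki67 in MO2 and MC3. In both conditions 24 of the 33 genes were lower in MO2 and MC3 than in each other library of the group. Mki67 was among 5 that were higher, against 36.9% lower and 33% higher of all genes. The median log2 ratio of MO2 and MC3 to the others was -0.34 over the list. The p53 targets had a median log2 fold change of 0.00409 over 19 tested genes, of which 0 passed (0.666% of all genes as lower and 3.71% as higher). With the covariate 4 targets passed as lower and 2, Cdkn1a and Btg2, as higher, against 16.4% and 13.9% of all genes. Btg2 had the largest log2 fold change of the list, 2.05 (SE 0.97, adjusted p = 0.415, edgeR, and 0.011 with the covariate), with overlapping groups. At an unadjusted p under 0.05, Aen and Eda2r were lower, with log2 fold changes of -0.61 (SE 0.19, adjusted p = 0.207, edgeR) and -0.52 (SE 0.21, adjusted p = 0.338, edgeR), and 1 target, Cdkn1a, was higher. At that level 5.63% of all genes were lower and 8.62% higher. Aen and Eda2r lay below MS-5 only in every co-culture library. Btg2, Aen and Eda2r were named after their values were seen. Cdkn1a, the CDK inhibitor among them, was at 120.03, 118 and 123 CPM in MS-5 only and at 168, 151 and 168 CPM in co-culture, above in every library (log2 fold change 0.43, SE 0.12, adjusted p = 0.141, edgeR, and 0.0164 with the covariate).

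Several members share their locus with a gene on the opposite strand that also had counts. The pairs with a protein-coding gene were Rmi1 with Hnrnpk, Rad54l with Lrrc41, Fanci with Polg, Xrcc3 with Klc1, Fancf with Gas2, Fancl with Vrk2, Fancc with 2010111I01Rik, Mre11a with Ankrd49, Fanca with Zfp276, Faap24 with Rhpn2 and Fancd2 with Fancd2os. Palb2 and Rmi2 overlap pseudogenes with 2 and 12 counts over all libraries. Rad54b shares its locus with Fsbp on the same strand. The libraries were stranded, but the strand setting of the quantification is not given in the sources used here, so the reads of such pairs may be split between the genes and those levels are uncertain. Fancb, Xrcc2 and Exo1 overlapped no other annotated gene.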

How the data were processed

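RNA-seq of 3 MS-5 only and 3 co-culture libraries was analysed, grouped by the sample labels. The authors quantified reads with kallisto 0.43.0 on a mouse cDNA index (GRCm38, with an Ensembl release) and deposited, for each transcript, an unnormalized estimated count, TPM (estimated count divided by effective length and scaled to a common total) and the length and effective length in bases. The submitters' notes also name mm10, FastQC 0.11.7 and sleuth 0.30.0. A human read was counted only if it looked like a mouse transcript. Replicates were not pooled.

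Of 118489 transcript identifiers, 116728 matched GENCODE M21 (GRCm38) and the other 1761, with 0.477% to 0.562% of the counts of a library, were left out. Estimated counts were summed per gene, rounded, filtered with filterByExpr and normalized by TMM, and the groups were compared in R 4.3.3 with edgeR 4.0.16 (quasi-likelihood test), with p adjusted by Benjamini-Hochberg over 13221 genes and a threshold of 0.1. Each standard error was obtained as log2 fold change over the root of F. Sleuth was not used here. The test was checked on simulated data. An exact two-sided permutation test of 3 libraries against 3 cannot give a p below 0.1.

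The members and the other gene lists were chosen with earlier results of these data known. Levels are given for Fancb, for members with an unadjusted p under 0.05, for those with the most positive and most negative fold changes, and for the 2 with the highest mean TPM of each role. Only 2 members had a positive fold change. Of the other lists, members past the threshold (6 leukocyte markers, where the rule allows 5), Mki67 and Cdkn1a are named, and 1 gene that the rule fixed beside them is not reported here. Btg2, Aen, Eda2r, Kit, Lyz2, Cd53, Cd33, Cd34, Dcn, Lum and Thy1 fall outside the rule and were named after their values were seen. Alternatives were scaling by DESeq2's factors or by library size alone, DESeq2 1.42.0, limma 3.58.1 on log2 TPM (pseudocount 0.5, 0.1 or 1), other filters, an effective length offset, protein-coding transcripts only, a block for replicate number, a covariate for MO2 and MC3 (taken from the study's plot of principal components), other thresholds and each library left out. Leaving out MO2 and MC3 together, and the covariate with protein-coding transcripts, were added after the data were seen. Depth bears on counting error only, and the standard errors include the spread between libraries. Promoter windows are from RefSeq (GRCm38.p6).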

Additional observations from a re-analysis of the deposited data

How the results depend on the processing

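The number of members past the threshold moved with most settings. It was 3 lower and 0 higher as reported. It was 2 lower scaled by library size, where Chek1 passed and Fancb and Exo1 no longer did, 9 lower with DESeq2, 0 with limma on log2 TPM, 0 with protein-coding transcripts only (where 0 genes of all passed as lower), 0 at thresholds of 0.05 and 0.01, 14 without MO2 and MC3, and 25 lower and 1 higher with the covariate for MO2 and MC3, on all or only protein-coding transcripts. Leaving out 1 library gave 0 to 2 lower. The median log2 fold change of the members was -0.31 with limma at a pseudocount of 1 and lay between -0.55 and -0.35 with 1 library left out. The log2 fold change of Fancb was -1.04 with library size, -1.04 with protein-coding transcripts only, -0.90, -1.03 and -0.78 with limma at pseudocounts of 0.5, 0.1 and 1, and between -1.16 and -1.001 with 1 library left out.

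The replicate numbers were tried as a block, but they do not pair the libraries: the correlation of deviations from the group means, across genes, was 0.53, -0.29 and -0.52 for the same-numbered libraries 1, 2 and 3, and 0.73 between MO2 and MC3. With the replicate block 0 members passed (1 of all genes passed as lower and 443 as higher) and Fancb had -1.07, 0 genes of the crosslink repair list and 0 of the cell cycle list passed, and Rad50 had 0.027.

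With the covariate (16.4% of all genes lower and 13.9% higher) the genes past the threshold numbered 21 in the crosslink repair list, 5 in end joining, 30 in the cell cycle list, 6 among p53 targets and 4 among stromal markers. Without MO2 and MC3 (4.6% lower and 7.92% higher) these numbers were 10, 3, 25, 3 and 2. Leaving out 1 library gave 0 to 1 in crosslink repair, 0 to 1 in the cell cycle list and 0 to 7 among leukocyte markers.

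The sign changed in 10 members, among them Palb2, Fancm and Brca2, with reported values of -0.45, -0.44 and -0.41. Fance was at -0.011, -0.012 and -0.011 in limma at pseudocounts of 0.5, 0.1 and 1 and at -0.0073 with the effective length offset, and Fancm at 0.029 and 0.081 in limma at 0.5 and 0.1. Rad51c was at 0.0196, 0.0195 and 0.0196 in the limma fits, 0.081 with the length offset, 0.34 with protein-coding transcripts, with or without the covariate, and 0.064 without MO2 and MC3. Rad50 was at 0.019, 0.025 and 0.012 in the limma fits, 0.0202 with the covariate, 0.039 with the covariate on protein-coding transcripts and 0.13 without MO2 and MC3. Xrcc3 was at 0.091 with protein-coding transcripts and 0.12 with the covariate added. With 1 library left out the ranges that crossed 0 were -0.017 to 0.13 for Fance, -0.85 to 0.13 for Palb2, -0.68 to 0.19 for Brca2, -0.97 to 0.47 for Xrcc3, -0.57 to 0.26 for Blm, -0.77 to 0.30 for Slx4, -0.59 to 0.66 for Rad50, -0.21 to 0.088 for Rad51c and -0.24 to 0.0084 for Rad51d. The cause of these changes was not tested. Of the other values for single members, Fancb left aside, 637 kept their direction and their side of the threshold, 65 passed it newly and 23 no longer passed it.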
